A study of Homo sapiens with 6 samples.

Results

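Nonsense-mediated decay (NMD) and the general mRNA decay machinery were examined in RPE-1 cells depleted of SON, through 46 genes selected by name: UPF and SMG factors, exon junction complex subunits, exosome subunits, decapping and 5′ exonuclease genes, and the deadenylases with their partner subunits. Each of the 46 names matched 1 row among the 58735 genes of the count table. RPE-1 is a human retinal pigment epithelial cell line. In this line CETN2, a centriole protein, carries GFP, and PLK4, the kinase that starts centriole duplication, sits under a doxycycline-inducible promoter driven by rtTA. The 3 siSON libraries came from cells given an siRNA against SON and the 3 siControl libraries from cells given a scramble siRNA, and all 6 had received 1 µg/mL of doxycycline to induce PLK4. The time after transfection and the number of siRNAs used are not given in the sources used here. Nothing in the labels says whether replicates were separate cultures, so p-values measure only the spread between these libraries, which may be technical.

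SON is a nuclear speckle protein needed for efficient splicing of many introns. Splicing errors often leave a premature stop codon, and NMD removes such mRNAs: the helicase UPF1 is bridged by UPF2 and UPF3 to exon junction complexes left on the mRNA by splicing, is phosphorylated by the kinase SMG1, and then recruits SMG5 and SMG6. The decay itself is done by machinery shared with ordinary mRNA turnover. PAN2-PAN3 and CCR4-NOT shorten the poly(A) tail, DCP2 with its partners removes the cap, XRN1 degrades from the 5′ end and the exosome from the 3′ end. The mRNAs of several NMD factors are themselves known NMD substrates. Counts per gene, as used here, do not separate productive from unproductive transcripts.

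Library totals ran from 54572365 to 69764836 counts. Levels below are CPM, that is counts as parts per 1000000 of the library total after TMM scaling, which uses a trimmed mean of gene-wise log ratios. Fold changes are siSON over siControl from edgeR's quasi-likelihood test, with p-values adjusted over all genes tested. Adjusted p-values below are from that test too, unless a permutation test or cyclic loess normalization is named. Under cyclic loess normalization both came from limma-voom, which changed the test as well as the scaling. A gene is called when its adjusted p is under 0.05. The targeted gene, SON, was at 297 ± 14.5 CPM in siControl and fell to 67.6 ± 2.49 CPM in siSON (± is the SD of 3 libraries throughout), a log2 fold change of -2.14 (SE 0.06, edgeR adjusted p 6.78e-10). Replicate 1 of each group differed most from the other libraries of its group (chi-square per degree of freedom 18.5 to 24.7 for pairs with replicate 1, and 6.77 and 7.21 for the others). Of 8 retinal pigment epithelium markers, TYR was at 0 in all 6 libraries and RLBP1 at most 0.0936 CPM. Lower in siSON were RPE65 (0.0803 to 0.258 CPM in siControl, 0 in siSON), LRAT (0.415 to 0.456 against 0.0517 to 0.0969 CPM) and PMEL (2.03 to 2.11 against 0.172 to 0.252 CPM). Higher in siSON were OTX2 (19.7 to 20.2 against 33.7 to 36.98 CPM), MITF (21.4 to 22.3 against 29.97 to 31.96 CPM) and BEST1 (7.71 to 8.59 against 9.92 to 14.8 CPM), so that the sum of the 8 was 51.4 to 53.2 CPM in siControl and 74.0 to 83.3 CPM in siSON. The sum of 4 epithelial markers was 764 to 863 against 1330.3 to 1392 CPM, with KRT18 at 208 to 233 against 609.99 to 621 CPM and EPCAM and CDH1 at most 0.161 CPM. The sum of 4 mesenchymal markers was 16016 to 19061 against 15455 to 17016 CPM, with COL1A1 at 136 to 149 against 30.3 to 44.1 CPM. The part of these shifts in the results was not tested. In bulk RNA, fewer cells of a kind and less RNA per cell cannot be told apart.

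Rises and falls stood side by side within most of the complexes. DCP2, SMG5 and UPF2 rose more than 2-fold, DCP1B fell to 11.6% and PAN2 to 32.7% of the control level, and the remaining members moved less. All 46 passed the filter on low counts, with 175 (EXOSC5) to 15279 (SMG5) counts per library. Of these, 38 were called, beside 71.7% of the 16591 genes tested, which makes the members' 82.6% a share close to the background. The 38 comprised 25 higher (54.3% of members; background 35.2%) and 13 lower (28.3%; background 36.5%). That split depended on the scaling: scaling by library size alone gave 14 rises and 17 falls, and cyclic loess normalization gave 18 rises and 16 falls. At least a 2-fold change was called for 5 members, or 10.9%, beside 29.3% of all genes; 3 of them were higher (background 8.72%) and 2 lower (background 20.5%). The groups did not overlap for 44 members, beside 75.1% of all genes. The background shares are those with TMM scaling. The median log2 fold change was 0.19 for the members and -0.03 for all genes tested. With library size alone these medians were -0.003 and -0.22, and under cyclic loess normalization 0.06 and 0.03. With TMM the median absolute log2 fold change was 0.40 for the members, 0.60 for protein-coding genes and 0.63 for all genes.

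**Figure D1:**
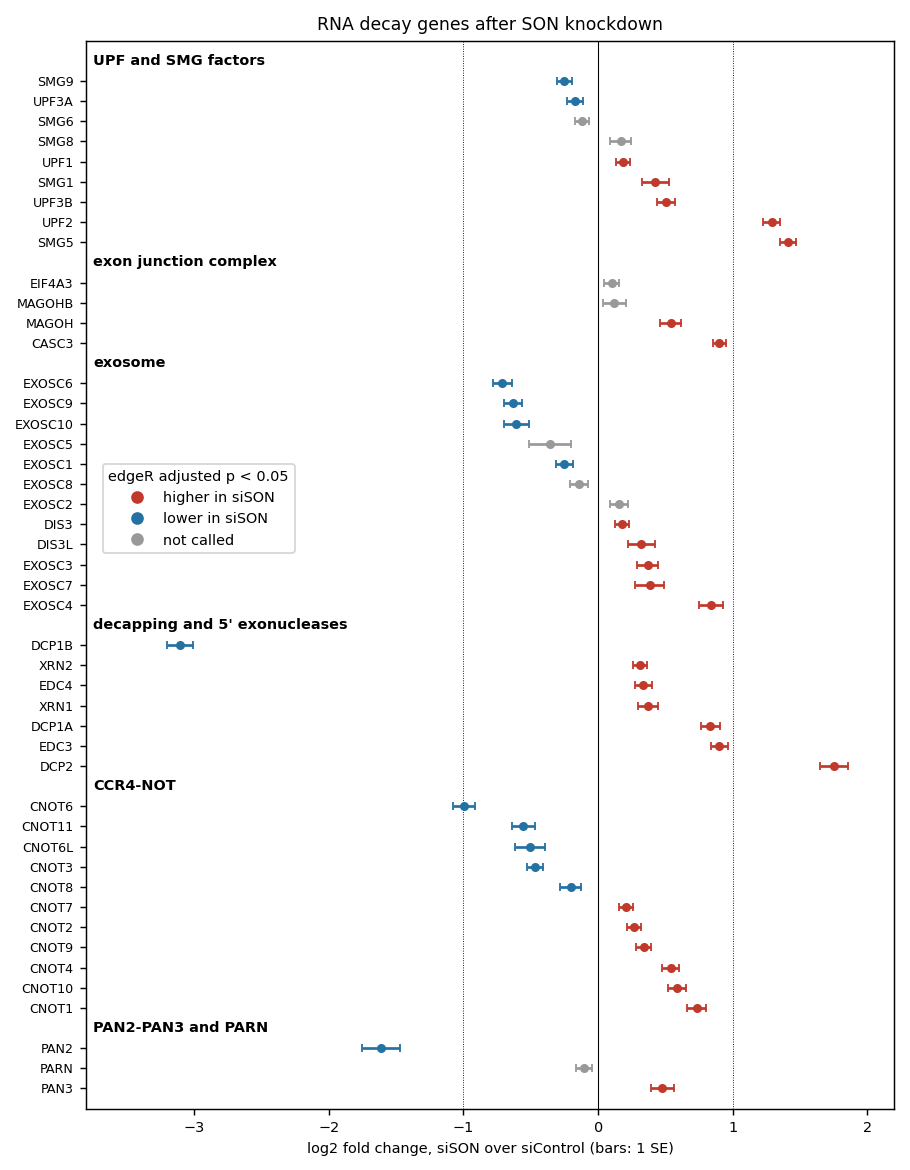
Log2 fold change (siSON over siControl, x axis) of each of the 46 genes, grouped by role, with bars of 1 SE; colours give the edgeR call and dotted lines mark a 2-fold change. DCP1B at -3.11 and DCP2 at 1.75 are the extremes, and the exosome and CCR4-NOT groups hold genes on either side of 0.

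Among 9 UPF and SMG factors, 5 rose (55.6%, background 35.2%), 2 fell (22.2%, background 36.5%) and 2 were not called. The calls of UPF1, SMG1 and SMG6 depended on the scaling, as given below. SMG5, which joins phosphorylated UPF1 and helps to dephosphorylate it (chromosome 1, 156249224 to 156282825, minus strand, GRCh38; 22 exons), had 95.0, 97.1 and 102.9 CPM in siControl and 263, 246 and 275 CPM in siSON. The siSON libraries were all more than 2-fold above the highest control (log2 fold change 1.41, SE 0.06, adjusted p 5.88e-09). UPF2, the adaptor between UPF1 and UPF3 (chromosome 10, 11920022 to 12043170, minus strand, 21 exons), had 35.6, 40.7 and 38.1 CPM in siControl against 94.7, 91.0 and 93.8 CPM in siSON. Its groups were also far apart (log2 fold change 1.29, SE 0.06, adjusted p 1.80e-08).

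The related genes UPF3A and UPF3B, whose proteins link UPF2 to the exon junction complex, moved in opposite directions. UPF3B had 31.3, 31.3 and 33.3 CPM in siControl and 42.1, 47.8 and 46.3 CPM in siSON (log2 fold change 0.50, SE 0.07, adjusted p 5.28e-05). UPF3A had 67.3, 62.8 and 61.4 CPM in siControl and 56.5, 57.8 and 55.6 CPM in siSON (-0.17, SE 0.06, adjusted p 0.0215), a fall that was not called without siSON replicate 3 (adjusted p 0.0658). In neither gene did the groups overlap.

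SMG1, the kinase of UPF1, rose from 64.1 ± 9.56 to 86.0 ± 6.59 CPM (log2 fold change 0.42, adjusted p 0.00306); the call was lost with library size alone (0.23, adjusted p 0.0602) and under cyclic loess normalization (0.24, adjusted p 0.0563). Its counts are uncertain, because 7 pseudogenes named SMG1P1 to SMG1P7 are near copies; the one with the most counts, SMG1P7, stood at 2.70 and 3.002 CPM in siControl and siSON. UPF1 itself rose slightly, from 108 ± 4.18 to 123 ± 1.66 CPM (log2 fold change 0.18, adjusted p 0.00833), a direction that turned with library size alone (-0.02) and under cyclic loess normalization (-0.07). Leaving out siControl replicate 1 or 2 also ended the UPF1 call (adjusted p 0.0621 and 0.0749). Of the SMG1 partners, SMG9 fell from 56.2 ± 1.4 to 47.2 ± 1.12 CPM (-0.25, adjusted p 0.00216), while SMG8 had a log2 fold change of 0.17 (adjusted p 0.0684), or -0.03 with library size alone. The endonuclease SMG6 had a log2 fold change of -0.12 (adjusted p 0.0623), which was past the threshold with library size alone (-0.32, adjusted p 0.000278) and under cyclic loess normalization (-0.34, adjusted p 0.000131).

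The exon junction complex marks spliced mRNAs. Of its 4 genes among the members, CASC3 and MAGOH rose and none fell, beside backgrounds of 35.2% and 36.5% of all genes tested. RBM8A, counted below with the other NMD and exon junction genes, rose (log2 fold change 0.81, adjusted p 2.55e-07). CASC3, a peripheral core subunit that promotes NMD, varied little within either group, with 62.1, 61.6 and 61.3 CPM in siControl and 114.7, 115.4 and 115.5 CPM in siSON (log2 fold change 0.90, SE 0.05, adjusted p 3.84e-08). EIF4A3, the helicase that clamps the complex on RNA, was at 69.1 ± 3.04 and 74.1 ± 2.37 CPM (0.10, adjusted p 0.144, and -0.097 and -0.093 with library size alone and under cyclic loess normalization).

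MAGOH and MAGOHB encode nearly the same protein, so part of their coding sequence is shown to let the reader judge how well reads can be assigned to each. The stretch covers 240 of 438 aligned coding bases, 5′ to 3′, from GENCODE 29 transcripts MAGOH-202 (coding bases 1 to 240; gene on chromosome 1, 53226892 to 53238610, minus strand) and MAGOHB-201 (coding bases 7 to 246; chromosome 12, 10604190 to 10613623, minus strand). Capitals mark the 31 bases at which they differ.
MAGOH: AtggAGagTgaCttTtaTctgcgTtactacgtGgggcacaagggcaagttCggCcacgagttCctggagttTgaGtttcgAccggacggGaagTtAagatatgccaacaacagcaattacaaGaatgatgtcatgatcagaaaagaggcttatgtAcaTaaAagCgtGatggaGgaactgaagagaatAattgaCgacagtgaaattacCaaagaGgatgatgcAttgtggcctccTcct
MAGOHB: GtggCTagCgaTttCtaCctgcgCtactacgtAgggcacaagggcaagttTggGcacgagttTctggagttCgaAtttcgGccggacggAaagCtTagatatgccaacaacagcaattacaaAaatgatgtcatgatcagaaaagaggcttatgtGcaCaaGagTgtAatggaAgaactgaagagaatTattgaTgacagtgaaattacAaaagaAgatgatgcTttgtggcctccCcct
Over the whole alignment 86.5% of bases were identical and the longest identical run was 38 bases, so differences are spread along the coding sequence. MAGOH had 20.8, 19.5 and 21.3 CPM in siControl and 32.4, 28.7 and 28.5 CPM in siSON, with no overlap (log2 fold change 0.54, SE 0.08, adjusted p 8.00e-05). MAGOHB had 21.4, 21.9 and 20.6 CPM in siControl and 21.4, 25.7 and 22.2 CPM in siSON; these groups overlapped and the gene was not called (0.12, adjusted p 0.230, and -0.08 with library size alone).

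The exosome divided within its own parts. Of 12 genes, 5 rose (41.7%, background 35.2%), 4 fell (33.3%, background 36.5%) and 3 were not called, shares near those of all genes tested. This split holds for TMM scaling only. Whether EXOSC3, EXOSC5, EXOSC7, EXOSC8, DIS3 and DIS3L were called depended on the scaling, as given below. None reached 2-fold, beside 29.3% of all genes. In the ring of 6 subunits, EXOSC4 and EXOSC7 rose, EXOSC6 and EXOSC9 fell, and EXOSC5 and EXOSC8 were not called. EXOSC4 had 11.3, 9.72 and 10.6 CPM in siControl and 19.4, 18.0 and 19.2 CPM in siSON (log2 fold change 0.84, SE 0.09, adjusted p 5.43e-06). EXOSC6 had 43.8, 44.7 and 43.3 CPM in siControl and 24.3, 28.1 and 28.1 CPM in siSON (-0.71, SE 0.07, adjusted p 5.23e-06). EXOSC9 had 47.0, 48.2 and 49.0 CPM in siControl and 28.9, 32.7 and 31.3 CPM in siSON (-0.63, SE 0.07, adjusted p 6.10e-06). In each of these 3 subunits the groups were separated by a wide gap.

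EXOSC7 rose by less, with a log2 fold change of 0.38 (adjusted p 0.00679), and lost its call with library size alone (0.19, adjusted p 0.134). EXOSC5, the least counted member, stood at 4.87 ± 0.440 and 3.81 ± 0.690 CPM (-0.36, adjusted p 0.0575), and EXOSC8 at 35.8 ± 0.232 and 32.5 ± 1.57 CPM (-0.14, adjusted p 0.0727). Both were lower past the threshold with library size alone (EXOSC5 -0.55, adjusted p 0.00864, and EXOSC8 -0.34, adjusted p 0.000921). EXOSC8 was so under cyclic loess normalization too (-0.20, adjusted p 0.0167). Of the 3 cap subunits, which bind RNA entering the ring, EXOSC3 rose (0.37, adjusted p 0.00109; 0.17 and adjusted p 0.0706 with library size alone) and EXOSC1 fell (-0.25, adjusted p 0.00371). The cap gene EXOSC2 had a log2 fold change of 0.15 (adjusted p 0.0523), and -0.04 with library size alone.

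The catalytic subunits also differed from one another. EXOSC10, the nuclear exonuclease, fell from 101.8 ± 5.88 to 66.9 ± 9.78 CPM (-0.61, SE 0.10, adjusted p 0.000180). DIS3, the main processive nuclease, had 76.3, 76.4 and 76.9 CPM in siControl and 89.2, 84.2 and 85.9 CPM in siSON (0.18, SE 0.05, adjusted p 0.0104), but its direction turned with library size alone (-0.02) and under cyclic loess normalization (-0.04). DIS3L, the cytoplasmic paralog, had 27.4, 20.7 and 22.3 CPM in siControl and 29.02, 28.6 and 30.3 CPM in siSON (0.32, SE 0.10, adjusted p 0.0133). The highest DIS3L control lay close to the lowest siSON library. Without siControl replicate 2 neither was called (DIS3 adjusted p 0.0682, DIS3L adjusted p 0.0769), and DIS3L was also not called without siControl replicate 3 (adjusted p 0.0573) or with library size alone (0.12, adjusted p 0.274).

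Of the 7 decapping and 5′ exonuclease genes, 6 rose and 1 fell, beside backgrounds of 35.2% and 36.5% of all genes tested. The rises called for EDC4, XRN1 and XRN2 depended on the scaling, as given below. The group held the highest and the lowest log2 fold change of the 46 genes. DCP2, the decapping enzyme (11 exons on the plus strand of chromosome 5, from 112976702 to 113020970), showed 18.6, 17.8 and 15.6 CPM in siControl and 49.7, 62.2 and 63.1 CPM in siSON. The rise was 3.37-fold in mean CPM (log2 fold change 1.75, SE 0.10, adjusted p 6.15e-08), and siSON replicate 1 was the lowest of its group. EDC3, an enhancer of decapping, had 30.2, 31.2 and 33.7 CPM in siControl and 59.4, 58.2 and 59.5 CPM in siSON (0.90, SE 0.06, adjusted p 2.55e-07). EDC4, the scaffold between DCP1 and DCP2, rose from 58.2 ± 2.53 to 73.5 ± 3.53 CPM (0.34, adjusted p 0.000462; 0.14 and adjusted p 0.0771 with library size alone).

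The activator DCP1 has a pair of genes, and they parted more than any other pair examined. DCP1B (chromosome 12, 1946054 to 2004535, minus strand, 9 exons) had 28.7, 32.5 and 30.3 CPM in siControl and 3.22, 3.62 and 3.78 CPM in siSON (log2 fold change -3.11, SE 0.10, adjusted p 1.42e-09). DCP1A had 32.1, 33.6 and 30.6 CPM in siControl and 62.2, 54.1 and 55.1 CPM in siSON (0.83, SE 0.07, adjusted p 1.33e-06). The genes were about equally counted in siControl and differed 16.1-fold in siSON, while their summed level was 62.5 ± 3.03 and 60.7 ± 4.15 CPM (SD, n = 3 each). DCP1B shares its span with CACNA1C and DCP1A with CACNA1D, each on the other strand, and the strand setting of the counting is not given in the sources used here. Other members share their span with another gene too, among them EXOSC9 with CCNA2, EDC3 with CLK3 and CNOT11 with TBC1D8 on the other strand. EXOSC7 overlaps CLEC3B on the same strand.

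XRN1, the cytoplasmic exonuclease that follows decapping, had 51.2, 62.3 and 53.1 CPM in siControl and 71.8, 71.3 and 72.1 CPM in siSON (0.37, SE 0.07, adjusted p 0.000934; 0.17 and adjusted p 0.0717 with library size alone). XRN2, its nuclear relative, had 140.3, 135.3 and 146.2 CPM in siControl and 180.7, 170.2 and 172.9 CPM in siSON (0.31, SE 0.05, adjusted p 0.000242). The XRN2 call was lost with library size alone (0.12, adjusted p 0.0611) and under cyclic loess normalization (0.02, adjusted p 0.717). For XRN1 and XRN2 the groups did not overlap.

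**Figure D2:**
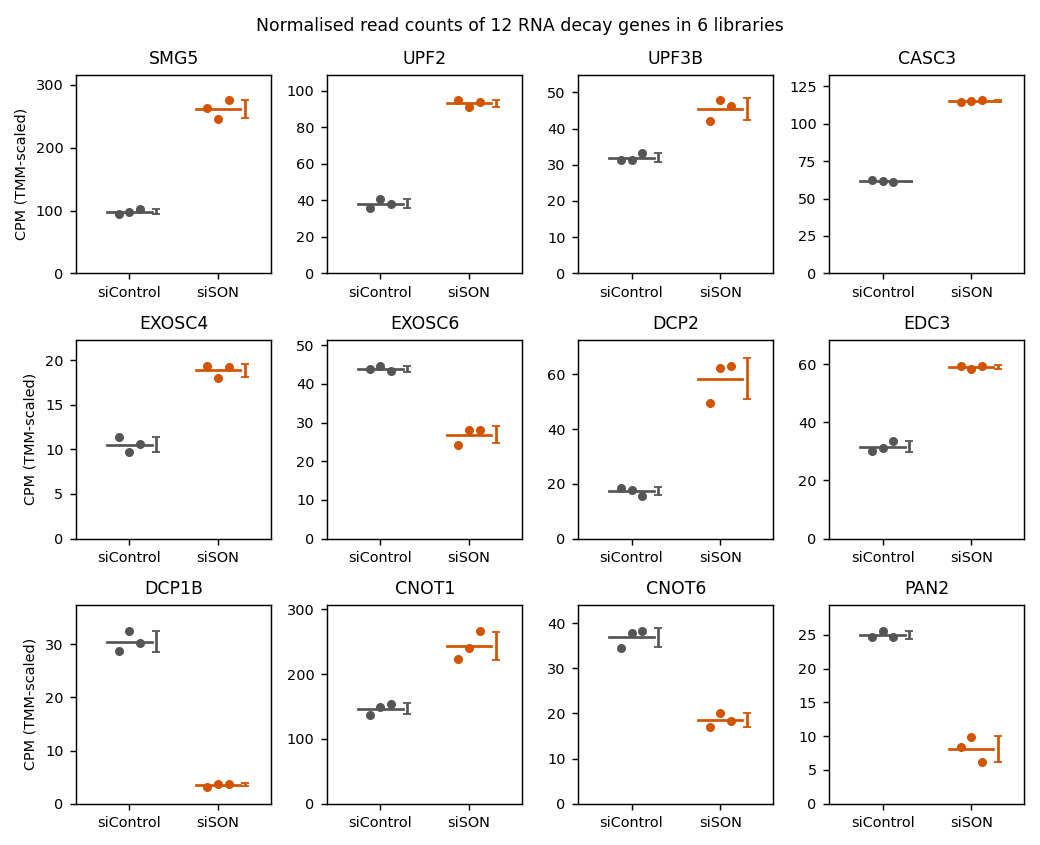
TMM-scaled CPM (y axis, from 0) of 12 of the genes in the 3 siControl (grey) and 3 siSON (orange) libraries; points are libraries, horizontal lines the means and bars 1 SD. In each panel the groups are separate, and DCP1B falls from about 30.5 to 3.54 CPM while DCP2 rises from 17.3 to 58.3 CPM.

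In CCR4-NOT, the main deadenylase complex, 6 of 11 genes rose and 5 fell, beside the same backgrounds of 35.2% and 36.5%. Those of CNOT2, CNOT7 and CNOT9, all rises, depended on the scaling, as given below. The CCR4-NOT scaffold CNOT1 had 137, 150 and 154 CPM in siControl and 224, 240.4 and 267 CPM in siSON (log2 fold change 0.73, SE 0.07, adjusted p 3.13e-06). The EEP-type deadenylase genes CNOT6 and CNOT6L, related to each other, both fell. CNOT6 had 34.4, 37.8 and 38.3 CPM in siControl and 17.0, 20.1 and 18.3 CPM in siSON (-0.998, SE 0.08, adjusted p 8.20e-07), just short of 2-fold. CNOT6L had 20.01, 25.9 and 22.3 CPM in siControl and 14.2, 16.8 and 17.1 CPM in siSON (-0.50, SE 0.11, adjusted p 0.00150). Their summed level fell from 59.6 ± 4.72 to 34.5 ± 2.91 CPM.

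The DEDD-type deadenylase genes CNOT7 and CNOT8 moved apart by small amounts. CNOT7 had 87.3, 90.4 and 91.2 CPM in siControl and 107.6, 104.0 and 98.9 CPM in siSON (0.21, SE 0.05, adjusted p 0.00511), but stood at -0.03 under cyclic loess normalization and lost its call with library size alone (0.01, adjusted p 0.875). CNOT8 had 57.3, 65.2 and 68.5 CPM in siControl and 52.2, 55.0 and 58.6 CPM in siSON (-0.20, SE 0.08, adjusted p 0.0326). The CNOT8 groups overlapped, and its call was lost without siControl replicate 2 or 3 or siSON replicate 1 or 2 (adjusted p 0.0785, 0.118, 0.0759 and 0.0838).

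Partner subunits within CCR4-NOT showed opposite signs. CNOT10 rose, with 21.0, 22.7 and 23.3 CPM in siControl and 33.3, 33.5 and 33.9 CPM in siSON (0.59, SE 0.07, adjusted p 1.59e-05). CNOT11, which binds CNOT10, fell from 49.1 ± 0.259 to 33.5 ± 4.16 CPM (-0.56, adjusted p 0.000136). CNOT2 rose (0.27, adjusted p 0.000947), although not past the threshold with library size alone (0.07, adjusted p 0.289) or under cyclic loess normalization (0.03, adjusted p 0.602), and its partner CNOT3 fell (-0.47, adjusted p 3.20e-05). The ubiquitin ligase CNOT4 rose (0.54, adjusted p 2.03e-05), as did CNOT9, a docking subunit for repressor proteins (0.34, adjusted p 0.000201; 0.09 and adjusted p 0.130 under cyclic loess normalization).

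PAN2-PAN3, which trims long poly(A) tails, changed unevenly too. The catalytic gene PAN2 (chromosome 12, 56316223 to 56334053, minus strand, 26 exons; overlapping CNPY2 on the same strand) had 24.6, 25.6 and 24.7 CPM in siControl and 8.41, 9.92 and 6.14 CPM in siSON (-1.61, SE 0.14, adjusted p 1.40e-06). The adaptor gene PAN3 had 25.01, 24.96 and 22.1 CPM in siControl and 34.3, 35.8 and 30.07 CPM in siSON (0.48, SE 0.09, adjusted p 0.000418). Levels of the genes were alike in siControl and far apart in siSON. PARN, a separate poly(A) ribonuclease, had 44.1 ± 0.929 and 41.02 ± 1.56 CPM and was not called (-0.10, adjusted p 0.150), although it was lower past the threshold with library size alone (-0.30, adjusted p 0.00139) and under cyclic loess normalization (-0.21, adjusted p 0.00739).

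The change in the balance of 7 related gene pairs was taken as the difference in the log2 ratio of their CPM (pseudocount 0.5). It was largest for DCP1A over DCP1B, whose log2 ratio was 0.07 ± 0.08 in siControl and 3.83 ± 0.21 in siSON (SD, n = 3 each). The UPF3A over UPF3B ratio fell by 0.67, from 0.98 ± 0.11 to 0.32 ± 0.09, and the CNOT6 over CNOT6L ratio by 0.49. The MAGOH over MAGOHB and CNOT7 over CNOT8 ratios rose by 0.41 and 0.40. In these 5 pairs the siControl and siSON libraries were fully separate; p was 0.1 in an exact 2-sided permutation test, which 3 libraries against 3 cannot go below, and 0.14 when adjusted over the 7 pairs. The DIS3 over DIS3L ratio (difference -0.15, exact permutation p = 0.4) and the XRN1 over XRN2 ratio (difference 0.06, exact permutation p = 0.8) had overlapping groups.

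**Figure D3:**
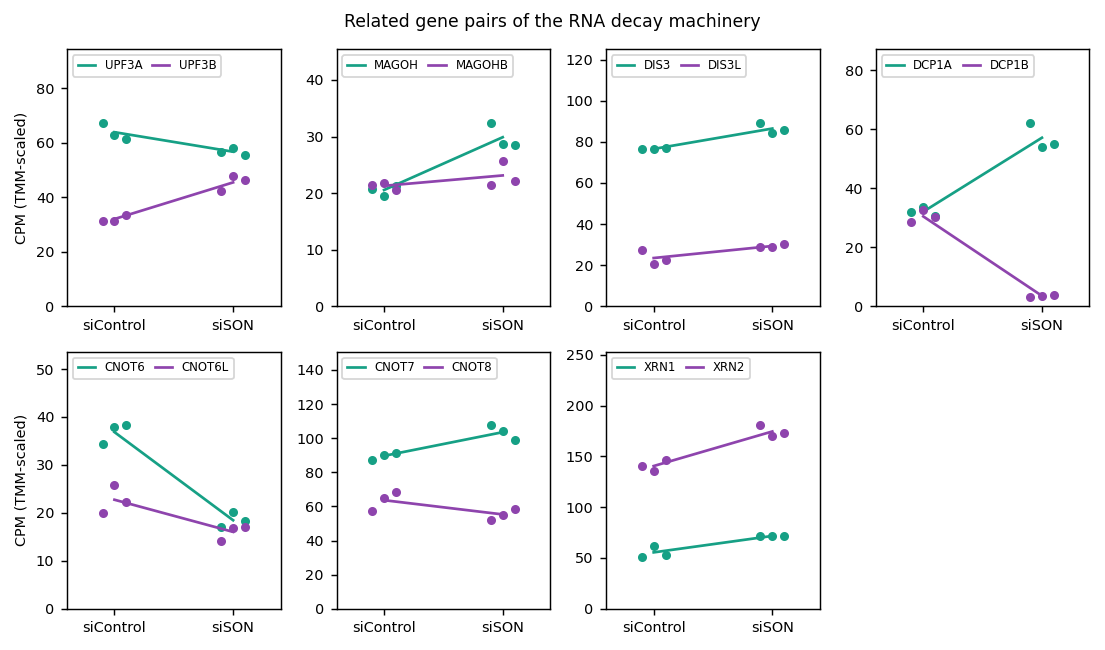
TMM-scaled CPM (y axis, from 0) of both genes of 7 related pairs; points are libraries and lines join the group means. DCP1A and DCP1B separate in siSON, CNOT6 and CNOT6L fall together, and XRN1 and XRN2 both rise.

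Per unit of exon length, XRN2 was the most abundant member in siControl at 149 ± 6.25 TPM (transcripts per 1000000, computed from all annotated exons of a gene), followed by SMG5 (67.8 ± 3.74), CNOT11 (64.4 ± 0.916) and CNOT9 (64.3 ± 0.754 TPM), which did not differ beyond the SD of SMG5. DCP2 was the lowest at 6.36 ± 0.50 TPM, next to CNOT6L at 8.88 ± 1.31 and SMG1 at 8.997 ± 1.22 TPM, which did not differ beyond their SDs. In siSON DCP2 reached 19.2 ± 2.80 TPM. The lowest in siSON was DCP1B, at 2.51 ± 0.247 TPM. The exon length used covers all annotated transcripts, which were 1 for XRN2 (3437 bases) and 17 for SMG1 (25988 bases). How far annotation sets this order was not tested.

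Other genes of the pathway were taken from 5 lists, which were chosen with earlier results of these data known. Their counts stand beside backgrounds of 71.7% called, 35.2% higher and 36.5% lower with TMM. The median log2 fold change of all genes tested was -0.22 with library size alone and 0.03 under cyclic loess normalization. Of 21 other NMD and exon junction genes, 14 rose, 2 fell and 5 were not called (median log2 fold change 0.46). With library size alone 11 were higher and 5 lower (median 0.26), and under cyclic loess normalization 12 and 5 (median 0.31). DHX34, a helicase that acts with UPF1, rose from 18.4 ± 2.22 to 90.2 ± 3.83 CPM (2.30, adjusted p 3.56e-09), and NBAS, an NMD factor of the endoplasmic reticulum, rose by 1.23 (adjusted p 3.27e-08) on the log2 scale. MOV10, a helicase that binds UPF1, fell from 114.9 ± 1.20 to 35.5 ± 3.70 CPM (-1.70, adjusted p 8.64e-09), and RUVBL2 had a log2 fold change of -0.28 (adjusted p 0.000381).

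Of 18 exosome helicases, adaptors and ribosome rescue factors, 12 rose and 5 fell (median 0.49, and 0.29 with library size alone and 0.26 under cyclic loess normalization). ABCE1, which recycles ribosomes, rose by 1.20 (adjusted p 8.44e-09) and the TRAMP subunit ZCCHC7 by 1.148 (adjusted p 9.74e-07). SKIV2L, the helicase that feeds RNA to the cytoplasmic exosome, fell from 57.0 ± 2.17 to 18.1 ± 2.76 CPM (-1.66, adjusted p 7.58e-08), and the exosome cofactor C1D fell from 13.02 ± 0.870 to 5.28 ± 0.233 CPM (-1.30, adjusted p 4.16e-07).

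Of 17 decapping activators and Lsm proteins, 8 rose and 8 fell (median 0.17, and -0.02 with library size alone). The largest rises were those of LSM1 (0.74, adjusted p 1.57e-06) and NUDT3 (0.67, adjusted p 5.69e-06), and the largest falls those of DXO (-1.06, adjusted p 1.06e-05) and LSM7 (-0.69, adjusted p 1.18e-05), each given as a log2 fold change. LSM1 and LSM7 belong to the cytoplasmic Lsm ring that binds deadenylated mRNA. Of 25 deadenylation recruiters and partners, 14 rose and 8 fell (median 0.46, and 0.26 with library size alone and 0.25 under cyclic loess normalization). TNRC6C and AGO4, of the microRNA silencing complex, rose by 1.76 (adjusted p 4.59e-09) and 1.56 (adjusted p 8.25e-09), while AGO1 fell (-1.11, adjusted p 8.75e-08), as did PAIP1, a partner of the poly(A)-binding protein (-0.74, adjusted p 7.41e-07).

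All 14 RNAs reported elsewhere as NMD substrates were called, 11 higher and 3 lower, with a median log2 fold change of 0.54 beside -0.03 for all genes tested. The list was chosen with earlier results of these data known, so these counts are a description. Small rises were among the 11: GAS5 (0.18, adjusted p 0.0447, groups overlapping), SNHG5 (0.16, adjusted p 0.0412) and GADD45A (0.17, adjusted p 0.0135). With library size alone 10 of the 14 were called, 7 higher and 3 lower (median 0.34). Without siControl replicate 2 the count was also 10. ATF4, a stress-response transcription factor, rose from 244 ± 11.3 to 589 ± 20.9 CPM (1.27, adjusted p 5.83e-09) and UPP1 from 21.1 ± 1.75 to 40.4 ± 3.47 CPM (0.93, adjusted p 2.20e-06). ATF3 fell from 45.4 ± 6.07 to 18.9 ± 0.502 CPM (-1.27, adjusted p 3.62e-07), and the snoRNA host gene SNHG1 fell by 0.59 (adjusted p 4.09e-05) on the log2 scale.

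Gene structure was compared as a description. GENCODE 29 lists at least 1 transcript of the NMD biotype for 25 of the 46 members (54.3%) and for 42.7% of protein-coding genes tested. The members had a median of 11 introns, beside 8 for protein-coding genes tested, and EXOSC6 alone had none. Of 309 protein-coding genes tested whose main transcript has no intron, 126 were lower and 78 higher, beside 36.5% and 35.2% of all genes tested. Median total intron length was 35288 bases in the 25 members that rose, 15833 bases in the 13 that fell and 9544.5 bases in the 8 that were not called, so the groups do not fall in the order of their fold changes. Across the 46 members, Spearman's rho between total intron length and log2 fold change was 0.29 (Pearson's r 0.16), and across 13008 protein-coding genes rho was 0.24. Among the members rho was 0.11 for the number of introns, 0.17 for median intron length (45 genes), -0.06 for GC content and 0.09 for exon length; genes of a library share its depth and scaling and are not independent replicates.

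The 12 calls lost or turned with library size alone or under cyclic loess normalization were all rises. Scaling by library size alone lowered the log2 fold changes of all genes by a median of 0.20, and cyclic loess normalization raised them by a median of 0.14 while lowering the members' median to 0.06. Of the 38 calls, 26 kept their direction and call under both, and 24, of which 13 were higher and 11 lower, did so under every other fit tried apart from the test against a 1.5-fold change. The 5 changes of at least 2-fold were among them.

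**Figure D4:**
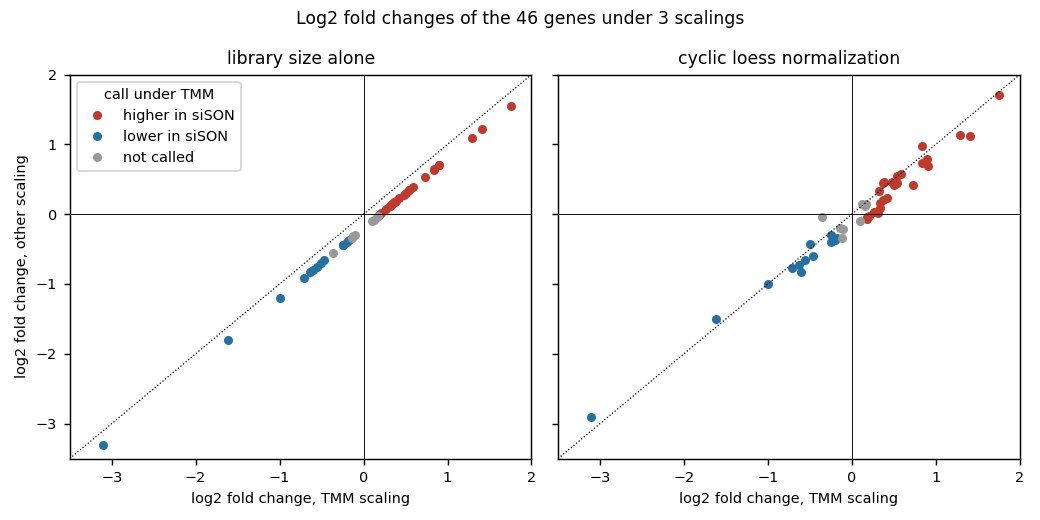
Log2 fold change of the 46 genes with TMM (x axis) against library size alone (left) and cyclic loess normalization (right); the dotted line is equality and colours give the call with TMM. Points lie below the line by a near-constant amount on the left, and the genes that cross 0 are those with small values.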

How the data were processed

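RNA-seq was done on 6 libraries, 3 per group. The authors deposited raw read counts per gene, 1 column per library, matched to libraries by title; the submitters' processing notes name cutadapt 1.16, STAR 2.5.2a, featureCounts 1.6.2, DESeq2 1.28.1 and build hg38, and the annotation release, strand setting and handling of multi-mapping reads are not given in the sources used here. All 58735 identifiers matched GENCODE 29 (GRCh38), which gave positions, exons and lengths.

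The count test was edgeR 4.0.16 (R 4.3.3): filterByExpr (minimum count 10), TMM factors, a robust quasi-likelihood fit on group alone over 16591 genes, and Benjamini-Hochberg adjustment. SE is the absolute log2 fold change over the square root of F. CPM used the full library totals and TMM factors. The floor of 3 counts was 0.0430 to 0.0550 CPM, which covers counting error only. The fit was tested on simulated counts in which few genes changed, with equal numbers of rises and falls. With so few changes the simulation could not test the scaling of these libraries. Gene pairs were compared with scipy 1.17.1. The alternatives were DESeq2 1.42.0, limma-voom and cyclic loess (limma 3.58.1), relative log expression (RLE) factors, library size alone, other count filters, a 1.5-fold test, a replicate block and omitted libraries.

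Members and lists were chosen with earlier results of these data known. Values in every library are given for the 3 called genes with the largest change in each role and for the 7 gene pairs; each other list gives its 2 largest called rises and falls.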

Additional observations from a re-analysis of the deposited data

How the results depend on the processing

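Under library size alone the number of members called higher fell to 14 and their median log2 fold change was -0.0027; the median was 0.063 under cyclic loess normalization and 0.14 with a mean count of at least 50, and 12 members were called in a test against a 1.5-fold change. By construction, library size alone moves all genes together and the 1.5-fold test asks for a larger change; for cyclic loess normalization and the count filter the cause was not tested. The log2 fold change turned negative with library size alone for UPF1 (-0.016), SMG8 (-0.031), EIF4A3 (-0.097), MAGOHB (-0.077), EXOSC2 (-0.042) and DIS3 (-0.022), and under cyclic loess normalization for UPF1 (-0.074), EIF4A3 (-0.093), DIS3 (-0.035) and CNOT7 (-0.026). EXOSC5 and EXOSC8 were lower past the threshold with library size alone (edgeR adjusted p 0.00864 and 0.000921). Leaving out each library in turn gave 34 to 39 members called, and leaving out replicate 1 of both groups, chosen after the data were seen, gave 40. DESeq2 and RLE factors each gave 38 and limma-voom 40. SON ranged from -2.41 to -2.11.

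The replicate numbers were not taken as pairs: the correlation of deviations from the group means was 0.194, 0.0461 and 0.118 for replicates 1, 2 and 3, not above 0.1 in every pair, although each library correlated best with its own number and the deposited column names give same-numbered libraries adjacent sample indices. Neither states what the numbers share. With the replicate block 43 members were called, 27 higher and 16 lower; the 5 added were SMG6, SMG8, EXOSC2, EXOSC5 and EXOSC8 (edgeR adjusted p 0.0344, 0.0434, 0.0407, 0.0488 and 0.0482). EXOSC5, with the fewest counts, had the largest SE; the effect of depth was not tested.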

Other observations

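Some genes of the other lists were looked at after their values were seen, so their counts are a description. Among all genes tested, 35.2% were called higher and 36.5% lower. Of the 7 genes of the cytoplasmic Lsm ring, LSM2, LSM3, LSM4, LSM5 and LSM7 fell, with log2 fold changes of -0.58, -0.45, -0.25, -0.33 and -0.69 (edgeR adjusted p at most 0.00548), while LSM1 and LSM6 rose by 0.74 and 0.56. The helicase DDX6, which works with the ring in decapping, fell from 187.5 ± 5.73 to 158 ± 4.14 CPM (SD, n = 3 each; -0.25, edgeR adjusted p 0.000956). Of the 4 Argonaute genes, AGO1 fell and AGO2, AGO3 and AGO4 rose (log2 fold changes 1.04, 0.72 and 1.56), and all 3 TNRC6 genes rose (1.02, 0.53 and 1.76 for TNRC6A, TNRC6B and TNRC6C). PABPC1, the main cytoplasmic poly(A)-binding protein, rose from 1438 ± 27.7 to 2551 ± 142 CPM (0.83, edgeR adjusted p 8.60e-08), while its relative PABPC4 fell from 226 ± 15.2 to 173 ± 9.21 CPM (-0.39, edgeR adjusted p 0.000187).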
